A study of Fragaria vesca with 12 samples.

Results

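UDP-glycosyltransferases (UGTs) of strawberry fruit are described here, taken as the genes whose deposited description names a UDP-glycosyltransferase, a UDP-glucose flavonoid 3-O-glucosyltransferase, or a hydroquinone, crocetin or scopoletin glucosyltransferase. Descriptions with anthocyanidin 3-O, zeatin or flavonol 3 were left out. The rule found 90 of the 21927 genes in the expression table, or 0.410%. It used the words alone and no measured value. Of the 90, 88 also carried a deposited gene ontology term for a UDP- or quercetin glucosyltransferase activity. The exceptions were FvH4_3g36584, with no term, and FvH4_5g04211, whose terms belong to other functions.

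The fruit came from the diploid woodland strawberry, Fragaria vesca, at 27 days post anthesis. One genotype was wild type (WT) and the other was the mutant Fvalkbh10b. ALKBH10B of Arabidopsis is a dioxygenase that takes the methyl group off N6-methyladenosine (m6A), an mRNA modification. Each genotype gave 3 input libraries of fragmented mRNA and 3 libraries of RNA precipitated with an antibody against m6A, 12 libraries in all, labelled as biological replicates. Not given in the sources used here are the kind of mutant allele, the number of mutant lines and how many fruits or plants entered a replicate. The expression table gives FPKM, fragments scaled to transcript length and sequencing depth, for the 6 input libraries, and the m6A peaks come as 1 list per genotype.

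UGTs move a sugar, usually glucose, from a UDP-sugar donor onto small molecules such as flavonoids, phenolic acids, coumarins, hormones and aroma alcohols. The sugar makes the acceptor more soluble and often less reactive, and many glycosides are stored in the vacuole, from which beta-glucosidases can release the free compound. In strawberry fruit, UGTs add sugars to anthocyanidins, flavonols, cinnamic acids and furanone aroma compounds. Plant UGTs are numbered by sequence family, and the deposited descriptions carry the number of the most similar named enzyme, which does not settle the substrate of the strawberry protein. The descriptions sorted the 90 genes into 16 groups. The 12 groups with a UGT number held 55 genes, and the largest of the others was the flavonoid 3-O-glucosyltransferases, with 17.

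The labels do not give the identifier of the mutated gene. FvH4_2g24110, whose deposited ontology terms name an RNA m6A dioxygenase activity, stood at 30.3, 28.5 and 31.0 FPKM in WT and 3.75, 3.84 and 5.34 FPKM in the mutant. The summed FPKM over all genes was 467174 to 469664 in the WT input libraries and 500726 to 522590 in the mutant ones. The middle of the distribution differed between genotypes, since the median log2 change of the 15571 genes tested was 0.25, mutant over WT. Marker genes of other tissues differed with genotype too, where 48.3% of all genes tested rose and 19.1% fell. All 29 tested green tissue genes (chlorophyll-binding and photosystem proteins, of 37 listed) rose, and their summed level went from 304 to 327 FPKM in WT to 3290 to 3519 FPKM in the mutant. In WT, 6 of the 37 read 0 in every library, and in the mutant 1 did. Ripe receptacle genes (expansins, Fra a allergens, anthocyanidin synthase and a furanone-forming reductase) summed to 3264 to 3482 FPKM in WT and 625 to 675 FPKM in the mutant, with 4 of 12 tested higher and 7 lower, and of 20 listed, 3 were at 0 throughout WT and 1 throughout the mutant. Seed storage proteins, which mark the achenes, summed to 655 to 669 FPKM in WT and 461 to 497 FPKM in the mutant, with 6 of 18 tested higher and 9 lower, and 2 of 25 listed at 0 throughout WT. All 4 tested late embryogenesis genes, of 10, fell, from a sum of 45.5 to 52.5 FPKM to one of 6.77 to 9.09 FPKM, and 2 were at 0 throughout the mutant. Genes of lignified tissue (38, of which 12 tested, 9 higher and 2 lower) summed to 64.2 to 69.3 FPKM in WT and 94.8 to 98.8 FPKM in the mutant, with 9 at 0 throughout WT and 5 throughout the mutant. The part of tissue make-up and of fruit stage in the UGT differences was not tested. In such bulk fruit RNA, fewer cells of a type and less RNA per cell cannot be told apart.

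Single UGTs moved far in both directions between the genotypes, while the family's summed share of the FPKM overlapped. The 90 genes summed to 1140, 1138 and 1117 FPKM in WT and to 1247, 1246 and 1191 FPKM in the mutant. As a share of all FPKM this was 0.242% ± 0.00216 (SD, n = 3) in WT and 0.240% ± 0.0110 (SD, n = 3) in the mutant, and the groups overlapped (exact two-sided permutation p = 1.0). Within that sum, 33 UGTs rose and 21 fell in the mutant, among them a flavonoid glucosyltransferase that went from above 40 FPKM to nearly 0 and a UGT74 gene that went from nearly 0 to about 30 FPKM.

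The limma test took genes that averaged 1 FPKM or more across all input libraries and ran on log2(FPKM + 1), with p adjusted over all genes tested and a threshold of 0.05. Of the 90 UGTs, 63 (70.0%) were tested, a share near that of all genes, of which 15571 of 21927 were tested. The 33 that rose were 52.4% of the tested UGTs, against 48.3% of all genes tested. The 21 that fell were 33.3%, against 19.1% of all genes. Changes of at least 2-fold on this scale were found in 15 UGTs that rose (23.8%) and 9 that fell (14.3%). Of all genes tested, 14.0% rose and 6.49% fell by that much. The 3 libraries of one genotype lay wholly above those of the other in 35 UGTs (55.6%) with the mutant higher and 21 (33.3%) with it lower. The same was true of 50.9% and 20.5% of all genes tested. With 3 libraries against 3, the smallest p an exact two-sided permutation test can give is 0.1, and it was 0.1 for each of these genes.

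Because the median gene moved by 0.25, each library was also rescaled to one median. Then 26 of the 63 tested UGTs rose (41.3%) and 21 fell (33.3%), against 30.8% and 32.2% of all genes. The share of falls thus lay near that of all genes, unlike before rescaling. No UGT was called in the opposite direction. Of the 63, 10 rose and 10 fell by at least 2-fold after rescaling, against 10.1% and 8.46% of all genes. The 7 calls lost were rises of 0.61 or less on the log2 scale, in FvH4_3g39630, FvH4_5g04160, FvH4_5g13300, FvH4_5g14060, FvH4_5g14061, FvH4_5g23771 and FvH4_6g16250. The median log2 change of the 63 tested UGTs was 0.28, which lay 0.03 above that of all genes tested. The median size of the change, taken relative to that of all genes and without its sign, was 0.71 in the UGTs and 0.38 in all genes tested.

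**Figure D1:**
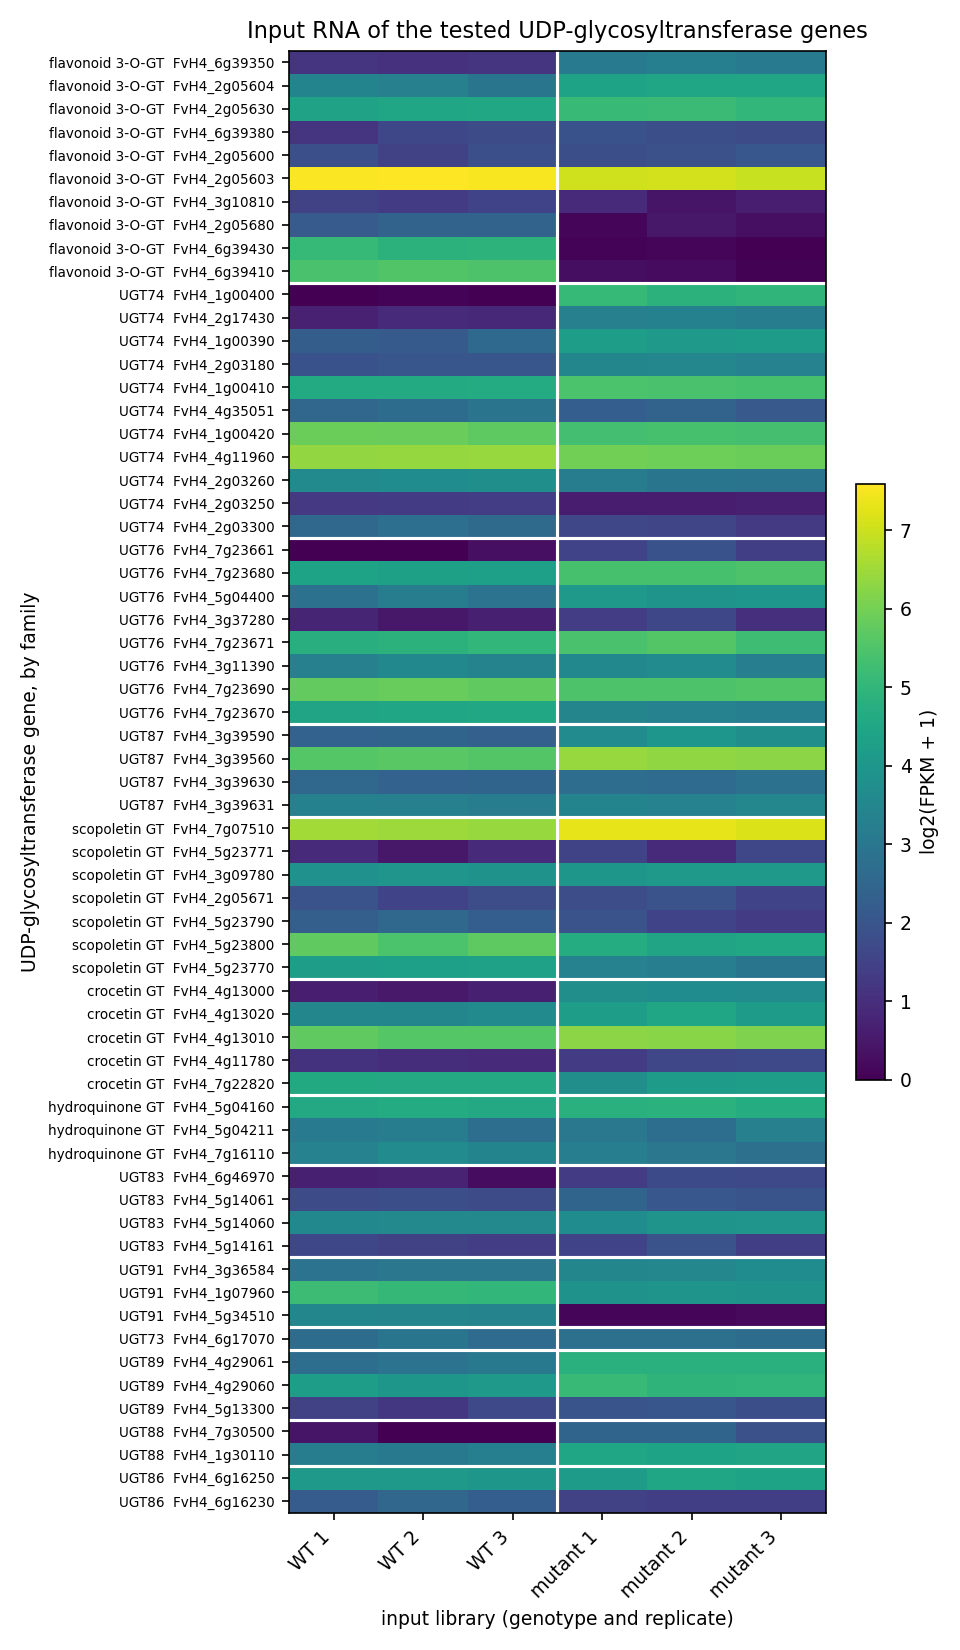
Level of the tested UGTs in each of the 6 input libraries, as log2(FPKM + 1), with genes in rows grouped by description and libraries in columns. Replicates within a genotype look alike, and the rows with the sharpest contrast are FvH4_1g00400, listed at 0 to 0.05 FPKM in WT and 28.4 to 32.8 FPKM in the mutant, and FvH4_6g39410, at 41.2 to 45.03 FPKM in WT and 0.04 to 0.21 FPKM in the mutant.

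A few UGTs held much of the family's RNA, and the 5 highest in each genotype all changed by less than 2-fold. The 5 highest members made up 41.3% of the summed UGT level in WT and 40.4% in the mutant. At the top in WT was the flavonoid 3-O-glucosyltransferase 7-like gene FvH4_2g05603 (chromosome 2, 4600985 to 4602439), at 185, 192 and 182 FPKM in WT and 130, 134 and 123 FPKM in the mutant. Flavonoid 3-O-glucosyltransferases 6 and 7 of cultivated strawberry glucosylate flavonols. The gene fell by 0.53 ± 0.04 on the log2 scale (SE, limma adjusted p = 2.9e-06). In the mutant the highest was the scopoletin glucosyltransferase-like FvH4_7g07510 (chromosome 7, 7396266 to 7398165), at 92.7, 88.8 and 84.1 FPKM in WT and 158, 157 and 146 FPKM in the mutant. Scopoletin glucosyltransferase of tobacco acts on coumarins and other phenolics. FvH4_7g07510 rose by 0.79 ± 0.05 (limma adjusted p = 4.14e-07), so these genes exchanged the first and second rank.

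FvH4_4g11960, a UGT74E1-like gene, stood at 80.8, 83.8 and 84.1 FPKM in WT and 61.6, 59.0 and 58.5 FPKM in the mutant, a fall of 0.47 ± 0.04 (limma adjusted p = 7.39e-06). It came next in WT, and was the lowest of the 5 highest in the mutant. The next in WT were FvH4_1g00420, a UGT74 gene at 55.3 ± 3.52 FPKM (SD, n = 3) that fell to 39.9 ± 0.841 FPKM, and the UGT76F1-like FvH4_7g23690, at 54.0 ± 1.32 FPKM and 44.2 ± 1.18 FPKM. Their WT levels differed by less than the SD of the first. In the mutant, the next after FvH4_2g05603 was the UGT87A1-like FvH4_3g39560, which rose from 47.4 ± 1.29 to 80.5 ± 4.28 FPKM. It was followed by the crocetin glucosyltransferase-like FvH4_4g13010, which rose from 48.7 ± 3.16 to 73.3 ± 3.64 FPKM.

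Flavonoid 3-O-glucosyltransferases, named after strawberry enzymes, showed the largest falls. Of 17 genes 10 were tested, and 3 rose, 5 fell and 2 did not pass. Of all genes tested, 48.3% rose and 19.1% fell, and the counts of each group below stand against the same shares. The flavonoid group summed to 297 to 308 FPKM in WT and to 190 to 206 FPKM in the mutant. FvH4_6g39410, a putative flavonoid 3-O-glucosyltransferase 3 (chromosome 6, 31144874 to 31146662), stood at 41.2, 45.03 and 43.5 FPKM in WT and 0.21, 0.17 and 0.04 FPKM in the mutant. The groups lay far apart, and the gene fell by 5.28 ± 0.10 on the log2 scale (limma adjusted p = 6.95e-11). Its neighbour FvH4_6g39430 (31147294 to 31149313), of the same description, was at 33.0, 28.6 and 29.0 FPKM in WT and 0.05, 0.10 and 0 FPKM in the mutant. It fell by 4.89 ± 0.11 (limma adjusted p = 1.83e-10). Another copy on the same stretch, FvH4_6g39350 (31095754 to 31097844), went the other way, from 1.19, 1.11 and 1.23 FPKM in WT to 7.90, 8.61 and 7.72 FPKM in the mutant. Its rise was 2.06 ± 0.11 (limma adjusted p = 1.17e-07).

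On chromosome 2 the flavonoid 3-O-glucosyltransferase 7-like gene FvH4_2g05604 (4603761 to 4605164) was at 9.84, 8.80 and 6.72 FPKM in WT and 20.2, 21.5 and 21.3 FPKM in the mutant. It rose by 1.23 ± 0.12 (limma adjusted p = 8.18e-06), while FvH4_2g05603, the member next to it, fell. FvH4_2g05680 (4638758 to 4640167), also annotated as number 7, was at 3.55, 4.31 and 4.35 FPKM in WT and 0.10, 0.39 and 0.24 FPKM in the mutant. That fall was 2.03 on the log2 scale with an SE of 0.15 (limma adjusted p = 1.15e-06). The remaining called genes of the group were FvH4_2g05630, which rose from 21.0 to 33.8 FPKM, and FvH4_3g10810, which fell from 1.74 to 0.607 FPKM.

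UGT74 enzymes of Arabidopsis glucosylate carboxylic acids and related groups, salicylate among them for UGT74F2. All 11 tested genes of the 14 in this group changed, with 5 up and 6 down, where 67.5% of all genes tested were called. The group's sum was 193 to 197 FPKM in WT and 217 to 228 FPKM in the mutant. FvH4_1g00400, UGT74E1-like (chromosome 1, 217803 to 219763), stood at 0, 0.05 and 0 FPKM in WT and 32.8, 28.4 and 30.5 FPKM in the mutant. This was the largest rise of any tested UGT, 4.95 ± 0.10 on the log2 scale (limma adjusted p = 1.41e-10). The adjacent FvH4_1g00390 (212377 to 214377) was at 3.77, 3.44 and 5.02 FPKM in WT and 17.6, 16.0 and 17.1 FPKM in the mutant. It rose by 1.83 ± 0.12 (limma adjusted p = 5.18e-07).

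Of the 3 tested UGT74F2-like genes, which all lie on chromosome 2, 2 rose and FvH4_2g03250 fell, from 1.52 ± 0.111 to 0.533 ± 0.0404 FPKM. FvH4_2g17430 (15016348 to 15018521) was at 0.63, 0.87 and 0.84 FPKM in WT and 8.80, 9.17 and 8.04 FPKM in the mutant, a rise of 2.44 ± 0.12 (limma adjusted p = 5.94e-08). FvH4_2g03180 (2439808 to 2441762) was at 2.80, 3.06 and 3.05 FPKM in WT and 10.2, 10.4 and 9.31 FPKM in the mutant, a rise of 1.47 ± 0.10 (limma adjusted p = 6.27e-07). Falls in the group were smaller than these rises. FvH4_2g03300 was at 4.92, 5.82 and 5.13 FPKM in WT and 2.07, 2.03 and 1.47 FPKM in the mutant, and it fell by 1.14 on the log2 scale (limma adjusted p = 3.54e-05). FvH4_2g03260, with 11.2, 12.1 and 12.7 FPKM in WT and 8.36, 6.70 and 6.62 FPKM in the mutant, fell by 0.67 (limma adjusted p = 0.000286).

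Among UGT76 genes, whose Arabidopsis relatives include the cytokinin N-glucosyltransferase UGT76C2 and the auxin-precursor enzyme UGT76F1, 5 of 8 tested rose, 2 fell and 1 did not pass, of 9 in all. FvH4_7g23670, UGT76C2-like (chromosome 7, 18417670 to 18420804), was at 20.8, 21.1 and 22.1 FPKM in WT and 10.1, 9.22 and 8.68 FPKM in the mutant. It fell by 1.11 ± 0.08 (limma adjusted p = 7.26e-07). FvH4_7g23661, UGT76F1-like (18411541 to 18413337), stood at 0, 0 and 0.24 FPKM in WT and 1.89, 2.76 and 1.64 FPKM in the mutant, and rose by 1.51 ± 0.18 (limma adjusted p = 4.42e-05).

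The crocetin glucosyltransferase-like group takes its name from an enzyme of Gardenia that puts glucose on a carotenoid-derived acid. Of 6 genes 5 were tested, 4 rose and 1 fell. FvH4_4g13000 (chromosome 4, 16653303 to 16655350) was at 0.57, 0.43 and 0.58 FPKM in WT and 12.5, 11.9 and 11.5 FPKM in the mutant. It rose by 3.09 ± 0.11 in log2(FPKM + 1) (limma adjusted p = 5.94e-09). The plain ratio of mean FPKM, without the added 1, was 22.7, over a WT mean of 0.527 FPKM. FvH4_7g22820 was at 23.7, 23.0 and 23.1 FPKM in WT and 12.3, 17.0 and 18.1 FPKM in the mutant, a fall of 0.55 with an SE of 0.12 (limma adjusted p = 0.00258). An opposite-strand UGT, FvH4_7g22821, lies wholly inside FvH4_7g22820, and without the strand setting of the counting their reads cannot be told apart. Their m6A peaks overlap too, in the WT list at 17938989 to 17939363 for FvH4_7g22821 and 17939168 to 17939617 for FvH4_7g22820. The peak counts below take them as separate peaks.

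Scopoletin glucosyltransferase-like genes, 7 in all and all tested, split into 2 that rose, 3 that fell and 2 that did not pass. FvH4_5g23770 (chromosome 5, 15082228 to 15084233) was at 18.1, 18.6 and 19.3 FPKM in WT and 9.37, 8.57 and 6.66 FPKM in the mutant. It fell by 1.11 ± 0.11 (limma adjusted p = 1.19e-05). FvH4_5g23800 (15093230 to 15094666) was at 52.1, 42.5 and 50.9 FPKM in WT and 24.8, 20.6 and 22.5 FPKM in the mutant, and fell by 1.07 ± 0.09 (limma adjusted p = 3.63e-06). It lies wholly inside a gene on the other strand, FvH4_5g23810, so its reads may be shared.

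UGT91 genes, 3 tested of 4, gave 1 rise and 2 falls, with a sum of 48.0 to 52.3 FPKM in WT and 24.3 to 25.8 FPKM in the mutant. FvH4_5g34510, UGT91C1-like (chromosome 5, 25154368 to 25156604), was at 10.1, 10.01 and 9.55 FPKM in WT and 0.09, 0.09 and 0.15 FPKM in the mutant. It fell by 3.29 ± 0.12 in log2(FPKM + 1) (limma adjusted p = 4.86e-09). The plain ratio of the WT mean to the mutant mean was 89.9, an imprecise value since the mutant mean was 0.11 FPKM. FvH4_1g07960, also UGT91C1-like (chromosome 1, 4201713 to 4203994), was at 35.8, 32.5 and 31.5 FPKM in WT and 14.1, 14.1 and 13.6 FPKM in the mutant, and fell by 1.20 ± 0.07 (limma adjusted p = 1.61e-07).

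UGT87, UGT88 and UGT89 genes rose where they passed, in groups of few tested genes, and 48.3% of all genes tested rose. Of the UGT87 genes, 4 of 8 were tested and 3 rose, one of which, FvH4_3g39630, is among the calls lost after rescaling. FvH4_3g39590, UGT87A1-like (chromosome 3, 33647298 to 33650060), was at 4.26, 4.50 and 4.03 FPKM in WT and 11.8, 14.9 and 12.9 FPKM in the mutant, and rose by 1.43 ± 0.10 (limma adjusted p = 1.24e-06). UGT89A2 of Arabidopsis glycosylates dihydroxybenzoic acids. Its relative here, FvH4_4g29061 (chromosome 4, 29398100 to 29400280), was at 5.69, 6.46 and 7.40 FPKM in WT and 27.5, 27.0 and 27.0 FPKM in the mutant, and rose by 1.91 ± 0.09 (limma adjusted p = 4.63e-08). All 3 UGT89 genes rose, 2 of them also after rescaling, and their sum went from 22.9 to 25.6 FPKM in WT to 59.8 to 64.6 FPKM in the mutant. Both tested UGT88 genes rose, and FvH4_1g30110, UGT88A1-like (chromosome 1, 23830031 to 23832498), was at 8.34, 7.41 and 8.72 FPKM in WT and 21.4, 20.1 and 20.6 FPKM in the mutant (limma log2 change 1.24 ± 0.08, adjusted p = 4.54e-07).

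UGT83 had 5 genes, of which 4 were tested and 3 rose, 1 of them also after rescaling. FvH4_5g14060 and FvH4_5g14061, UGT83 genes that lost their calls after rescaling, share 1084 bases on the same strand, so reads may count for either. Of 5 hydroquinone glucosyltransferase-like genes, named after the arbutin synthase of Rauvolfia, 3 were tested, with 1 rise (lost after rescaling) and 1 fall. UGT86 had 1 rise, lost after rescaling, and 1 fall. The 1 tested UGT73 gene of 4 did not pass, at 5.83 ± 0.773 FPKM in WT and 5.79 ± 0.261 FPKM in the mutant. No gene of UGT79, UGT84 or UGT90, each with 1 member, was tested.

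**Figure D2:**
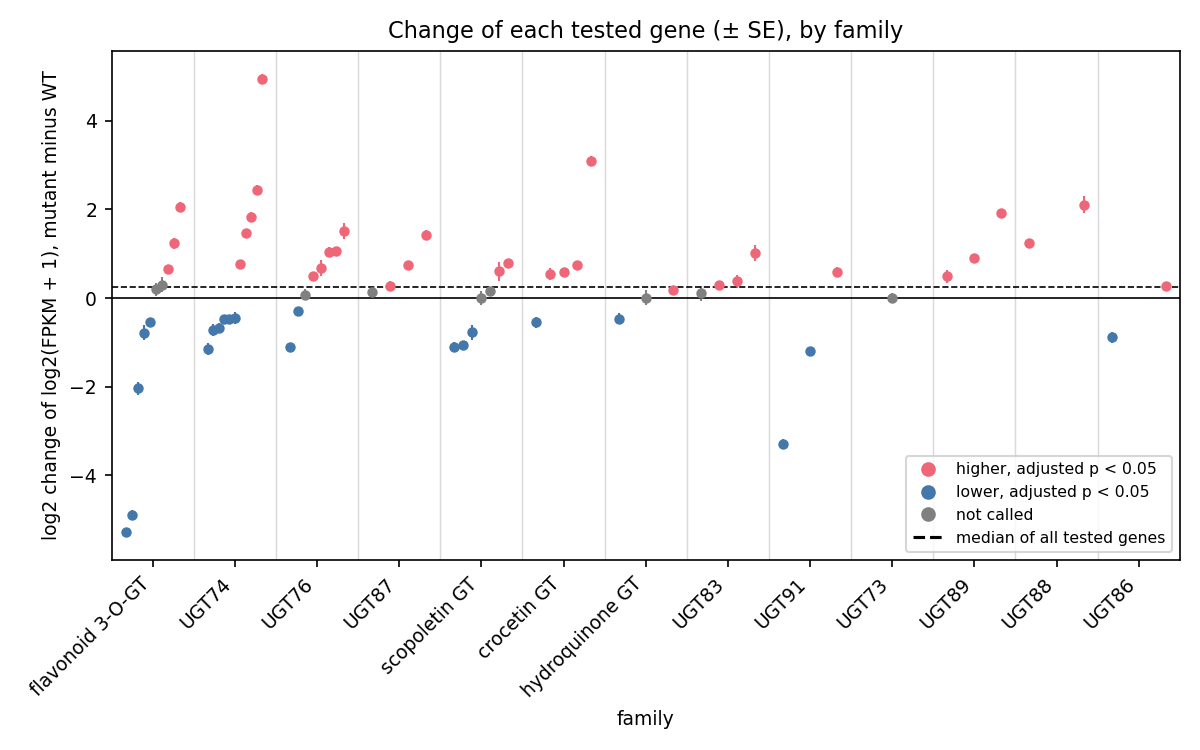
Change of each tested UGT, mutant minus WT in log2(FPKM + 1) from limma, on the vertical axis, by description group on the horizontal axis. Filled colours mark genes past adjusted p 0.05, bars are SE, and the dashed line is the median of all genes tested, 0.25; UGT74 and flavonoid genes spread to both sides, down to -5.28 and up to 4.95.

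The 27 untested UGTs had little RNA in this fruit, and 21 of them were under 1 FPKM in every library. The libraries lay apart with the mutant higher in 6 and with it lower in 4, and overlapped in 17. Of all untested genes, 25.9% lay apart with the mutant higher and 7.27% with it lower. FvH4_7g23660, a UGT76 gene, is listed as 0 in all 3 WT libraries and at 1.71, 2.01 and 0.91 FPKM in the mutant. The reverse held for the flavonoid gene FvH4_6g39401, at 1.06, 1.19 and 0.92 FPKM in WT and 0 in all 3 mutant libraries. FvH4_6g50530, UGT90A1-like, was at 1.59, 1.33 and 0.88 FPKM in WT and 0.29, 0.27 and 0.24 FPKM in the mutant. FvH4_3g19220, whose Arabidopsis relative UGT79B6 makes flavonol glycosides in pollen, was at 1.09, 0.72 and 0.33 FPKM in WT and under 0.1 FPKM in the mutant. These 4 were picked after their values were seen.

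The UGTs lay mostly in tandem arrays, defined here by distance alone, as runs in which neighbouring members start at most 50 kb apart. Such a run may hold members on both strands and other genes between them, up to 6 in the flavonoid run on chromosome 6. There were 17 arrays with 66 of the 90 genes (73.3%), and 24 genes stood alone. In 16 of the 17 arrays every member belonged to one description group. Of 12 arrays with at least 2 tested genes, 6 held both a rise and a fall, 5 held rises alone and 1 held falls alone. Of all genes tested, 48.3% rose and 19.1% fell. Runs of other neighbouring genes were not counted, so these numbers do not show a trait of UGT arrays. After rescaling, 4 arrays held both directions. Close copies may share reads, and the authors' rule for such reads is not known here.

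The array on chromosome 6 (31084592 to 31149313) had 6 flavonoid 3-O-glucosyltransferase genes. FvH4_6g39401, FvH4_6g39410 and FvH4_6g39430, consecutive members at one end, were near 0 in the mutant, whereas FvH4_6g39350 rose and FvH4_6g39380, at 1.91 ± 0.561 and 2.55 ± 0.245 FPKM, did not pass. FvH4_6g39330 at the other end was under 1 FPKM throughout. The array on chromosome 2 (4590365 to 4640167) held 9 genes in 49.8 kb, 8 flavonoid and 1 scopoletin glucosyltransferase. There 2 rose, 2 fell and 2 did not pass, with FvH4_2g05604 the largest rise and FvH4_2g05680 the largest fall.

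On chromosome 7 the UGT76 array (18408820 to 18429878, 6 genes) held 3 rises, in FvH4_7g23661, FvH4_7g23671 and FvH4_7g23680, and 2 falls, in FvH4_7g23670 and FvH4_7g23690. FvH4_7g23680 went from 19.4 ± 0.862 to 41.4 ± 1.36 FPKM and its neighbour FvH4_7g23690 from 54.0 ± 1.32 to 44.2 ± 1.18 FPKM. The UGT74 array on chromosome 1 (212377 to 236952, 5 genes) held 3 rises, led by FvH4_1g00400, and 1 fall, FvH4_1g00420. In the scopoletin array on chromosome 5 (15082228 to 15094666, 4 genes), 3 genes fell. The remaining one, FvH4_5g23771, was at 0.86, 0.40 and 0.86 FPKM in WT and 1.93, 0.90 and 2.09 FPKM in the mutant, and its rise of 0.61 ± 0.21 (limma adjusted p = 0.0281) was lost after rescaling (limma adjusted p = 0.0786), without WT replicate 2 (0.0989) and without mutant replicate 1 (0.0922). The UGT87 array on chromosome 3, with 8 genes, had 3 rises and no fall.

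**Figure D3:**
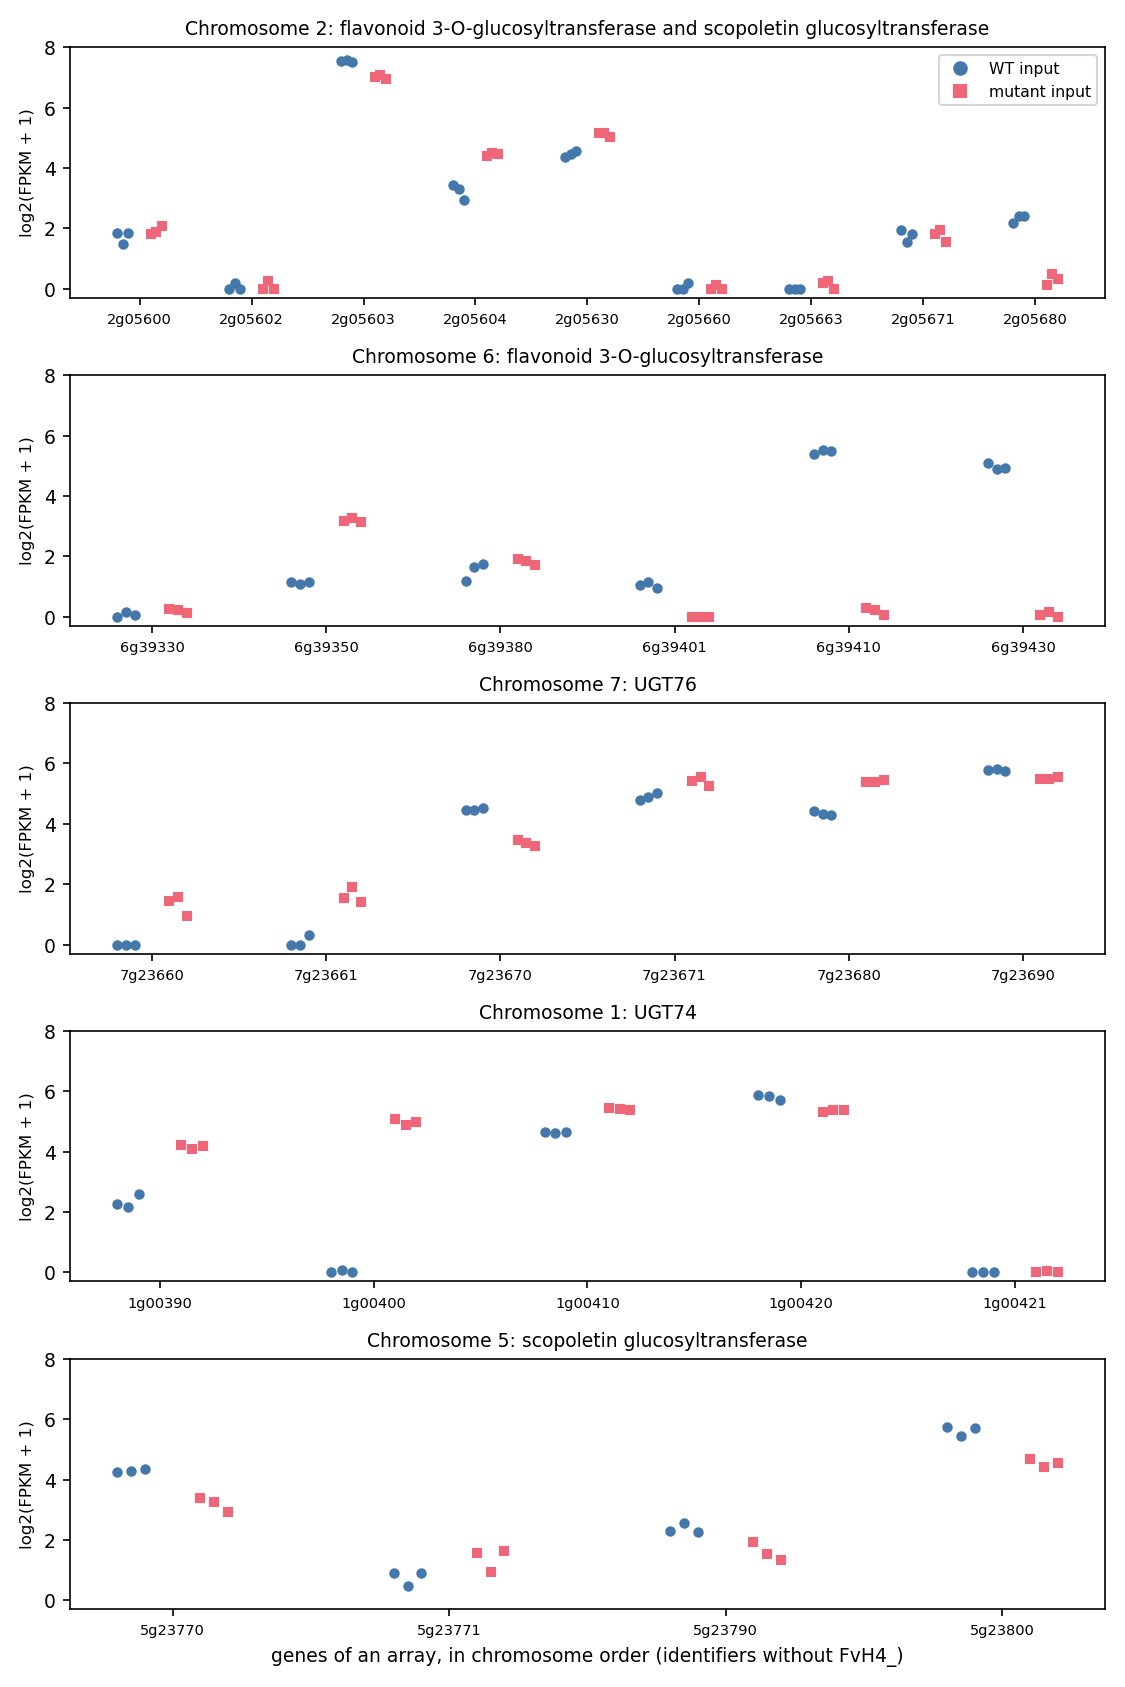
Level of every member of the 5 arrays with at least 4 genes and changes in both directions, as log2(FPKM + 1) on the vertical axis, with genes in chromosomal order on the horizontal axis. Each point is 1 input library, WT circles and mutant squares; genes of one array part in opposite directions, as FvH4_1g00400 (rise of 4.95) and FvH4_1g00420 (change of -0.46), or FvH4_6g39350 (rise of 2.06) and FvH4_6g39410 (change of -5.28).

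Peaks of m6A were called by the authors as 1 list per genotype, so values per precipitated library were not used here and the lists were not tested against each other. A peak lay in 50 of the 90 UGTs (55.6%) in the WT list and in 58 (64.4%) in the mutant list, against 63.1% and 66.2% of all genes. Among tested genes the shares were 71.4% and 81.0% of UGTs and 82.2% and 83.2% of all genes. Both lists held a peak in 44 UGTs (48.9%), the WT list alone in 6 (6.67%), the mutant list alone in 14 (15.6%) and neither in 26 (28.9%). For all genes of the expression table these shares were 59.2%, 3.89%, 7.05% and 29.9%. For tested UGTs they were 65.1%, 6.35%, 15.9% and 12.7%, against 78.2%, 4.01%, 4.93% and 12.8% of all genes tested. Of the 14 with a peak in the mutant list alone, 8 were under 1 FPKM in WT and 4 in the mutant. Of the 6 in the WT list alone, 1 was under 1 FPKM in WT and 4 in the mutant. Of the 44 in both lists, 6 were under 1 FPKM in WT and 4 in the mutant. Of the 26 in neither list, 18 were under 1 FPKM in WT and 20 in the mutant. The part of input level in these differences was not tested.

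Most UGT peaks were annotated outside the 3′ UTR, the class that held the larger part of all peaks. A peak's class depends on the gene ends in the annotation. Exonic peaks of FvH4_2g05600, FvH4_2g05630, FvH4_2g05671 and others reach the annotated 3′ end of the gene. Whether such genes lack an annotated 3′ UTR was not tested. In WT, 17 of 72 UGT peaks (23.6%) were annotated to the 3′ UTR, 47 (65.3%) as exonic and 8 (11.1%) to the 5′ UTR, where all peaks in genes of the table were 54.8%, 29.5% and 15.7%. In the mutant list 20 of 85 UGT peaks (23.5%) were in the 3′ UTR, 47 (55.3%) were exonic and 18 (21.2%) were in the 5′ UTR, against 55.0%, 29.7% and 15.3%. Some overlapping peaks carried different classes in the lists. Exonic WT peaks of FvH4_1g30110, FvH4_4g11780, FvH4_5g23790 and FvH4_6g39380 overlapped mutant peaks annotated to the 5′ UTR. Those of FvH4_2g17430, FvH4_4g13000 and FvH4_4g29061 overlapped mutant peaks in the 3′ UTR. A 3′ UTR peak of FvH4_3g39570 in WT was exonic in the mutant list. The median authors' log2 enrichment of precipitated over input RNA was 1.72 for UGT peaks and 2.27 for all peaks in WT, and 1.54 and 2.38 in the mutant list. Within exonic peaks the medians for UGTs and all genes were 1.44 and 1.31 in WT and 1.45 and 1.48 in the mutant list. Within the 3′ UTR they were 2.41 and 3.01 in WT and 2.71 and 3.06 in the mutant list.

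**Figure D4:**
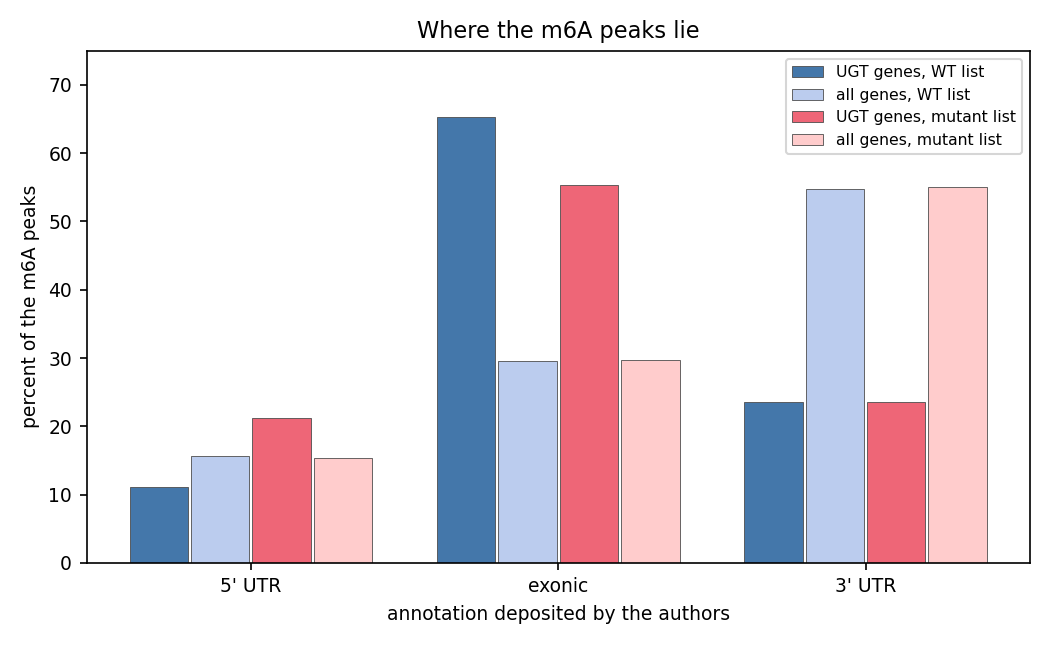
Percent of m6A peaks in each annotation class deposited by the authors, for UGT genes and all genes of the table in the WT and the mutant list. UGT peaks are mostly exonic (65.3% in WT and 55.3% in the mutant list), and all peaks are mostly in the 3′ UTR (54.8% and 55.0%).

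Of the 72 UGT peaks in WT, 60 (83.3%) overlapped a mutant peak on the same strand by at least 1 base, which was 60 of the 85 mutant peaks (70.6%). For all peaks the shares were 82.3% of the WT list and 79.3% of the mutant list. Neither list held a peak in 8 of the 63 tested UGTs (12.7%), against 12.8% of all genes tested. They were FvH4_2g05603, the highest UGT in WT, FvH4_6g39410 and FvH4_6g39430, which had the largest falls, and FvH4_5g14060, FvH4_5g14061, FvH4_5g14161, FvH4_5g23770 and FvH4_5g23771. FvH4_1g00400, near 0 in WT input, had a peak in the mutant list alone (chromosome 1, 218153 to 218252, exonic). FvH4_5g34510, near 0 in mutant input, had one in the WT list alone (chromosome 5, 25155643 to 25156042, 3′ UTR). FvH4_7g23690 was at 54.0 FPKM in WT and 44.2 FPKM in the mutant, and had 2 peaks in the mutant list and none in the WT list. The highest enrichment of a UGT peak was 4.54 on the authors' log2 scale, in the mutant list, in the 3′ UTR of FvH4_4g11780 (chromosome 4, 15519275 to 15519449), a crocetin glucosyltransferase-like gene at 1.02 FPKM in WT and 1.95 FPKM in the mutant.

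Higher m6A peaks in the mutant outnumbered lower ones in UGTs, as they did in all genes, where the authors' deposited table has 4295 higher and 1925 lower peaks. The authors' deposited table of differential peaks, which compares enrichment between genotypes, had 34 entries in 27 UGTs. At the authors' adjusted p under 0.05, 23 peaks in 18 UGTs were higher in the mutant in the authors' deposited table, which was 28.1% of the 64 UGTs with a peak in either list. Of all genes with a peak, 24.2% had a higher differential peak. Lower peaks numbered 5, in 5 UGTs (7.81%, against 11.4% of all genes). Higher UGT peaks had a median log2 change of 0.50 in the authors' deposited table, with a range of 0.23 to 4.11, beside a median of 0.46 in all genes. Lower UGT peaks had a median of -1.92, beside -0.53 in all genes.

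Higher peaks went with input levels in either direction. Of the 18 UGTs with a higher peak, 8 rose in input, 6 fell, 3 did not pass and 1 was not tested. Of the 5 with a lower peak, 3 rose in input, 1 fell and 1 did not pass. Among all 63 tested UGTs, with or without such a peak, 52.4% rose and 33.3% fell. Matching counts for all genes are not given here, and a link between peak change and input change was not tested. The genes that rose under a lower peak were FvH4_1g30110, FvH4_3g39590 and FvH4_6g46970. In the authors' deposited table the FvH4_1g30110 peak (chromosome 1, 23832259 to 23832498, 3′ UTR) changed by -1.92, while input was 2.53-fold higher in the mutant. FvH4_1g30110 overlaps FvH4_1g30100 and FvH4_1g30140, both on the other strand, by 520 bases in all, so its reads may be shared. The FvH4_3g39590 peak (chromosome 3, 33649204 to 33649303, 3′ UTR) changed by -1.83 in the authors' deposited table, with input 3.09-fold higher. For FvH4_6g46970, a UGT83 gene at 0.493 ± 0.267 FPKM in WT and 2.00 ± 0.384 FPKM in the mutant, the authors' deposited table gives -2.41 (chromosome 6, 35719595 to 35719719, exonic, adjusted p = 0.01). That interval overlaps no peak of the gene in either list, since the WT list has none in FvH4_6g46970 and the mutant list has 1 elsewhere in it (35718836 to 35719394, log2 enrichment 0.67). FvH4_2g05680, which nearly vanished from input, has -1.97 in the authors' deposited table (adjusted p = 0.02), with input of 4.07 FPKM in WT and 0.243 FPKM in the mutant behind it.

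Among the higher peaks, the UGT86 gene FvH4_6g16230 led the genes with at least 1 FPKM of input, at 1.51 in the authors' deposited table (chromosome 6, 10223978 to 10224077, exonic). Its input fell from 3.60, 4.63 and 3.80 FPKM in WT to 1.78, 1.67 and 1.66 FPKM in the mutant (limma log2 change -0.88 ± 0.13, adjusted p = 0.000161). In the chromosome 2 array, FvH4_2g05604 has 0.86 and FvH4_2g05600 has 0.69 in the authors' deposited table, both exonic. FvH4_2g05600 was at 2.62, 1.77 and 2.60 FPKM in WT and 2.55, 2.69 and 3.20 FPKM in the mutant. Its libraries overlapped, and it did not pass in input (limma adjusted p = 0.247).

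FvH4_3g39630 has 0.86 in the authors' deposited table, in its 3′ UTR (adjusted p = 0.04). Its input was 4.81, 4.20 and 4.45 FPKM in WT and 5.50, 5.25 and 6.22 FPKM in the mutant, a rise at the edge of the threshold (limma adjusted p = 0.0419) that was lost after rescaling (limma adjusted p = 0.757), with the replicate number in the model, and without WT replicate 2 or 3 or mutant replicate 1 or 3. Genes picked after their values were seen add to this. FvH4_3g11390, a UGT76 gene, has 3 higher peaks in the authors' deposited table (0.68, 0.55 and 0.63), with input of 9.66 ± 0.947 FPKM in WT and 10.3 ± 1.66 FPKM in the mutant that did not pass (limma adjusted p = 0.587). FvH4_1g07960 has 2 higher peaks, 0.40 and 0.42, in the authors' deposited table, and its input fell.

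**Figure D5:**
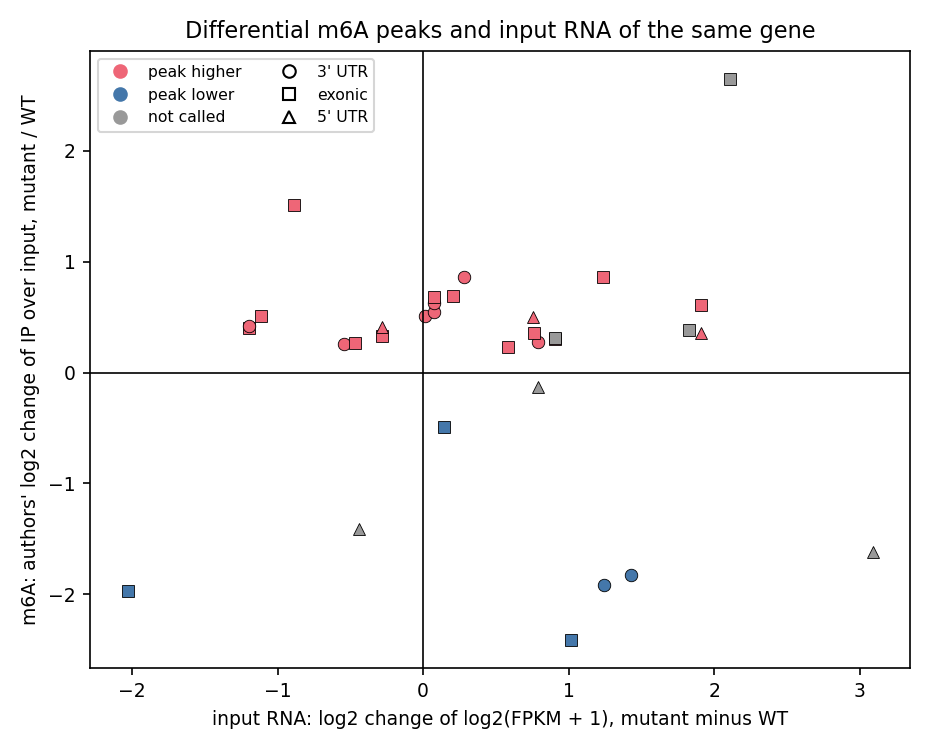
Differential m6A peaks of UGT genes, with the limma change of the gene's input level on the horizontal axis and the authors' log2 change of the peak on the vertical axis, both mutant over WT. The peak of the untested FvH4_1g16840 is not drawn; higher peaks lie on both sides of 0 on the input axis, and FvH4_1g30110 and FvH4_3g39590 lie at -1.92 and -1.83 with higher input.

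Other genes of the pathway were grouped by words in their descriptions. Their counts, here and in the next paragraph, stand against the shares of all genes tested. Those were 48.3% risen and 19.1% fallen, and 30.8% and 32.2% after rescaling. Of 23 genes that make the sugar donors, 20 were tested, 7 rose and 8 fell. After rescaling 4 rose and 12 fell, and one gene, the UDP-glucose dehydrogenase FvH4_4g30330, changed sides. Sucrose synthase FvH4_1g09360, which makes UDP-glucose from sucrose, rose from 13.6 ± 0.709 to 109 ± 5.75 FPKM (limma adjusted p = 1.13e-10). UDP-glucuronate 4-epimerase FvH4_4g13320, which makes the donor of galacturonate, was at 93.6, 86.1 and 88.6 FPKM in WT and 293, 279 and 268 FPKM in the mutant, a rise of 1.64 ± 0.05 (limma adjusted p = 1.25e-09). The fall with the smallest adjusted p, picked after the values were seen, was FvH4_7g22040, a UDP-glucuronic acid decarboxylase 5-like gene whose enzyme family makes UDP-xylose, from 156 ± 4.66 to 78.7 ± 5.35 FPKM (limma adjusted p = 1.33e-07). Of 19 anthocyanidin, zeatin and flavonol glycosyltransferases outside the 90, 10 were tested, 3 rose and 5 fell, and 3 and 6 did so after rescaling. Their summed level was 325 to 336 FPKM in WT and 76.0 to 81.0 FPKM in the mutant. One of them, the anthocyanidin 3-O-glucosyltransferase 2-like FvH4_6g39311, lies 22.8 kb before FvH4_6g39330, the first gene of the chromosome 6 array, and fell from 83.9 ± 1.51 to 16.4 ± 1.18 FPKM (limma adjusted p = 5.89e-10).

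Of 5 other small-molecule glucosyltransferases, all tested, 1 rose and 2 fell, and after rescaling none rose and 4 fell. Among them, FvH4_2g05690 is annotated as a glucosyltransferase of abscisate, the ripening hormone of strawberry. It lies 584 bases beyond FvH4_2g05680, at the end of the chromosome 2 array. It was at 154, 147 and 142 FPKM in WT and 13.9, 14.7 and 13.9 FPKM in the mutant, and fell by 3.29 on the log2 scale (limma adjusted p = 1.99e-11). Beta-glucosidases, which remove glucose from stored glycosides, numbered 14. Of 11 tested, 6 rose and 2 fell, and 4 and 3 did so after rescaling. FvH4_3g43520, beta-glucosidase 13-like, fell from 8.24 ± 0.543 to 1.32 ± 0.256 FPKM (limma adjusted p = 3.66e-07), and FvH4_5g17090, beta-glucosidase 44-like, rose from 1.66 ± 0.331 to 7.88 ± 0.299 FPKM (limma adjusted p = 9.58e-07).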

How the data were processed

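Input and anti-m6A libraries of WT and Fvalkbh10b fruit, 3 each, were grouped by the labels. Fragmented mRNA was sequenced in pairs as input or after precipitation with an anti-m6A antibody, per the labels' protocols. FastQC, HISAT2 and StringTie are named in the submitters' processing notes, with neither a version nor a step. Not given in the sources used here are the genome build, annotation, counting settings and peak caller. Per the file headers, the authors deposited FPKM per input library, rounded to 2 decimals, and 1 peak list per genotype with the log2 enrichment and adjusted p-value computed by the authors. Each differential peak has a log2 change and an adjusted p-value deposited by the authors, also rounded to 2 decimals, so some p-values are listed as 0. Peak starts count from 0 in the deposited lists and were raised by 1 (3704 WT peaks start 1 base before their gene and 0 start at it).

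Low values in FPKM did not fall on steps of whole reads (19.6% of 4137 ratios lay within 0.1 of a whole number, against 20.0% if evenly spread), so the depth is unknown and no count model, interval or floor was used. The 15571 genes averaging 1 FPKM or more across the 6 input libraries entered limma 3.58.1 (R 4.3.3) as log2(FPKM + 1). The model held genotype alone and used a mean-variance trend, and p was adjusted by Benjamini-Hochberg over these genes. The pseudocount makes the fold changes of low genes too small, and a listed 0 may be a failed estimate. On simulated data of the same size, changes of 0.5, 1 and 2 log2 units were given to 67, 67 and 66 of the 15571 genes. They were recovered in 32.8%, 88.1% and 97.0% of the changed genes, with 5 false calls. In the real data far more genes, 10505, were called, so these rates do not carry over to it. Exact permutation tests used scipy 1.17.1. The labels call the replicates biological without naming plants or cultures, so p-values measure the spread between these samples.

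The UGTs and all gene lists were chosen with earlier results of these data known. Named genes were the 10 largest rises and 10 largest falls past the threshold averaging 5 FPKM or more in a genotype, the 5 highest in each genotype, the largest rise and fall of each array of at least 4 genes with both directions, the 8 largest differential peaks with a mean input of at least 1 FPKM, and 2 genes per other list; other names are given as examples. Alternatives were another pseudocount, other filters, rescaling, quantile normalization, a replicate block, no trend, each library left out in turn, and other thresholds for peaks and arrays. Sequences of UGT genes and proteins were not analysed here. Columns of per-sample values without a sample numbered 0.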

Additional observations from a re-analysis of the deposited data

How the results depend on the processing

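No UGT was called in the opposite direction under any alternative, and the counts of rises and falls, with or without the 2-fold limit, stayed within 1.5 times those reported. Leaving out 1 library at a time gave 27 to 31 rises, 19 to 21 falls, 13 to 15 rises and 8 to 9 falls of at least 2-fold. The median log2 change of the tested UGTs relative to all genes was 0.087 with a filter of 5 FPKM, -0.040 with no filter and -0.019 to 0.042 with 1 library left out (-0.019 without mutant replicate 2), so its sign is not settled. Rescaling lost 7 calls and quantile normalization lost 9 and gained 1. With 1 library left out, 2 to 5 calls were lost, each from a change with an adjusted p above 0.01 in the fit of all libraries: FvH4_3g39630, FvH4_4g35051, FvH4_5g04160, FvH4_5g13300, FvH4_5g14060, FvH4_5g14061, FvH4_5g23771 and FvH4_6g16250. FvH4_4g35051, a fall, was lost without WT replicate 3 or mutant replicate 3 (limma adjusted p = 0.0625 to 0.0712, with 0.000903 to 0.0712 over its alternatives). Of 429 values of 34 named genes under the alternatives, 415 kept direction and call, and 11 lost the call, in FvH4_3g39630 and FvH4_5g23771. The other 3 changed sign, near 0: FvH4_2g05600, not called, went from 0.20 to -0.19 with quantile normalization and to -0.00097 after rescaling, and FvH4_3g39630 went to -0.054 with quantile normalization. The cause was not tested.

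Same-numbered libraries did not deviate together (Pearson r of 0.0351, -0.0313 and 0.0287 over 15571 genes), and not every library correlated best with its own number, so the numbers were not taken as pairs. With the replicate block 32 UGTs rose and 21 fell, and the lost call was FvH4_3g39630 (limma adjusted p = 0.0606).

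UGTs with a higher differential peak fell from 18 to 10 when a log2 change of at least 0.5 was also asked for, and those with a lower one from 5 to 2 at the authors' adjusted p under 0.01. Shared peaks fell from 60 to 52 at 50% reciprocal overlap. UGTs in arrays numbered 62 at 20 kb and 70 at 100 kb. The unknown depth limits what can be said of genes near 0 FPKM.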

Other observations

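Genes with a UGT ontology term but other descriptions moved in both directions. This list was added after the data were seen. Of 72 such genes outside the 90, 40 were tested, 20 rose and 16 fell, and after rescaling 13 rose and 17 fell. Of all genes tested, 48.3% rose and 19.1% fell, and 30.8% and 32.2% did so after rescaling. The 72 genes summed to 869 to 906 FPKM in WT and 509 to 528 FPKM in the mutant. Some of them are among the anthocyanidin and abscisate glucosyltransferases and the sucrose synthase genes counted under other lists.

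Genes described as 7-deoxyloganetin glucosyltransferase-like, named after an enzyme of iridoid synthesis in Catharanthus and Gardenia, form a UGT group that the word rule left out. Of 20, 10 were tested, 8 rose and 2 fell, and after rescaling 6 rose and 2 fell, a list likewise added after the data were seen. Of all genes tested, 48.3% rose and 19.1% fell, and 30.8% and 32.2% did so after rescaling. The 20 genes summed to 44.6 to 48.2 FPKM in WT and 98.8 to 104 FPKM in the mutant. FvH4_3g17550 was at 4.15, 4.62 and 4.14 FPKM in WT and 48.0, 46.8 and 46.0 FPKM in the mutant (limma log2 change 3.18 ± 0.07, adjusted p = 1.8e-10). FvH4_4g35790 fell from 16.3 ± 0.676 to 4.56 ± 0.364 FPKM (limma adjusted p = 1.26e-07).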
